A study of Homo sapiens with 12 samples.

Results

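CDH1, CDH2, VIM, EPCAM, ZEB1, ZEB2, SNAI1, SNAI2, TWIST1 and FN1 mark the position of a cell between epithelial and mesenchymal states. These 10 genes were taken by symbol from the 28008 genes of the deposited count tables, and each of them was found in both tables. RNA-seq was performed on 2 established lines of human pancreatic neuroendocrine tumor (pNET), QGP-1 and BON-1. The cells carry tet-MUC1shRNA, a short hairpin RNA against MUC1 switched on by doxycycline (DOX). Each line was sequenced as 3 libraries of vehicle-treated cells, which received DMSO, and 3 libraries of cells that received DOX at 500 ng/mL, all after 7 days. All 4 groups carry the hairpin construct, and libraries of cells with a control hairpin were not analysed here, so an effect of DOX itself and an effect of the hairpin cannot be told apart. QGP-1 cells were grown in RPMI medium and BON-1 cells in DMEM/F-12. The QGP-1 libraries held 38224144 to 50525926 counts and the BON-1 libraries 15981954 to 28484324.

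Epithelial cells are held together by E-cadherin, the product of CDH1, and by the adhesion molecule EPCAM. In epithelial-mesenchymal transition (EMT) these are replaced by N-cadherin from CDH2, by the intermediate filament protein vimentin from VIM and by the matrix glycoprotein fibronectin from FN1. The zinc finger proteins ZEB1, ZEB2, SNAI1 and SNAI2 and the helix-loop-helix protein TWIST1 are transcription factors that drive this switch, and ZEB and SNAI proteins repress CDH1 through E2-boxes in its promoter. Carcinoma lines often hold intermediate states in which markers of both kinds are present.

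The identity of the lines was examined first. Levels of single markers in this paragraph are means over the vehicle and DOX libraries of a line together. Some markers, among them those of the acinar and immune lists, differed by treatment, as given below. Neuroendocrine markers were abundant in both, led by SCG2, a secretogranin, in QGP-1 at a mean of 2990 CPM (counts scaled by TMM to a common library size within a line) and by CHGA, chromogranin A, in BON-1 at 5520 CPM. Of 18 neuroendocrine markers, 14 reached a mean of 10 CPM in QGP-1 and 12 in BON-1. NEUROD1 had 0 counts in QGP-1 and ISL1 had 0 counts in BON-1. The 7 epithelial markers, which include CDH1 and EPCAM, each exceeded 10 CPM in both lines. Of 10 fibroblast markers, 9 stayed below 1 CPM in QGP-1, and the most abundant, COL1A1, reached 1.80 CPM. In BON-1 cells 7 of them stayed below 1 CPM, POSTN and THY1 had 0 counts, and LUM was the most abundant at 7.84 CPM. The summed level of the fibroblast list was 3.24 to 5.09 CPM in the QGP-1 vehicle libraries and 2.00 to 2.13 CPM with DOX. It was 13.2 to 16.5 CPM in the BON-1 vehicle libraries and 15.6 to 17.9 CPM with DOX. Markers of other cells were few. Of 6 endothelial markers, 6 stayed below 1 CPM in QGP-1 and 5 in BON-1, where KDR reached 36.0 CPM. Of the immune markers, PTPRC, CD3E and CD14 stayed below 1 CPM in each line, with LYZ the most abundant at 14.1 CPM in QGP-1 and CD68 at 37.9 CPM in BON-1. Of 5 acinar markers, AMY2A, CELA3A, CPA1 and CTRB1 stayed below 1 CPM in each line, CTRB1 at 0 counts, and PRSS1 stood at 77.5 and 30.8 CPM. As these are bulk libraries, fewer cells with a transcript and less of it per cell cannot be told apart.

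MUC1, the target of the hairpin, was lower in each DOX library than in each vehicle library of the same line. In QGP-1 it stood at 7.19, 5.81 and 5.65 CPM with vehicle and at 0.705, 1.04 and 0.744 CPM with DOX (log2 fold change -2.91, SE 0.23, adjusted p = 8.24e-07 by the edgeR quasi-likelihood test). In BON-1 it stood at 20.6, 20.7 and 15.6 CPM with vehicle and at 1.48, 2.65 and 3.97 CPM with DOX (log2 fold change -2.79, SE 0.22, adjusted p = 6.51e-11).

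Before any response to DOX, QGP-1 and BON-1 cells held different members of the set. Both lines expressed the epithelial pair CDH1 and EPCAM at high levels. QGP-1 cells added CDH2 and had 0 VIM counts with vehicle, whereas BON-1 cells added VIM, FN1 and SNAI2 and had 0 CDH2 counts. Levels of different genes were compared within a line on the deposited TPM, which is per transcript length, after leaving out RN7SK, RN7SL1 and RN7SL2 and rescaling the remaining genes to a common total. On this scale the QGP-1 vehicle order was EPCAM at 824 ± 44 (SD, n = 3), CDH1 at 220 ± 17.0, CDH2 at 45.3 ± 0.273 and ZEB1 at 0.940 ± 0.216, and the ranges of these neighbours did not overlap. SNAI1 at 0.523, FN1 at 0.102, TWIST1 at 0.0838, SNAI2 at 0.0147 and ZEB2 at 0.00842 followed, and FN1 overlapped TWIST1 and SNAI2 overlapped ZEB2.

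The BON-1 vehicle order was VIM at 798 ± 121 (SD, n = 3), EPCAM at 664 ± 11.2, CDH1 at 199 ± 20.5, FN1 at 50.7 ± 3.01, SNAI2 at 22.6 ± 3.37, ZEB1 at 10.6 ± 0.727, SNAI1 at 8.23 ± 1.79 and ZEB2 at 0.402 ± 0.0205 rescaled TPM. VIM overlapped EPCAM, and ZEB1 overlapped SNAI1. In rank among all genes of a library, VIM stood at the 99.2 to 99.5 percentile in the BON-1 vehicle libraries, and EPCAM at the 99.4 to 99.5 percentile in those of QGP-1.

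**Figure D1:**
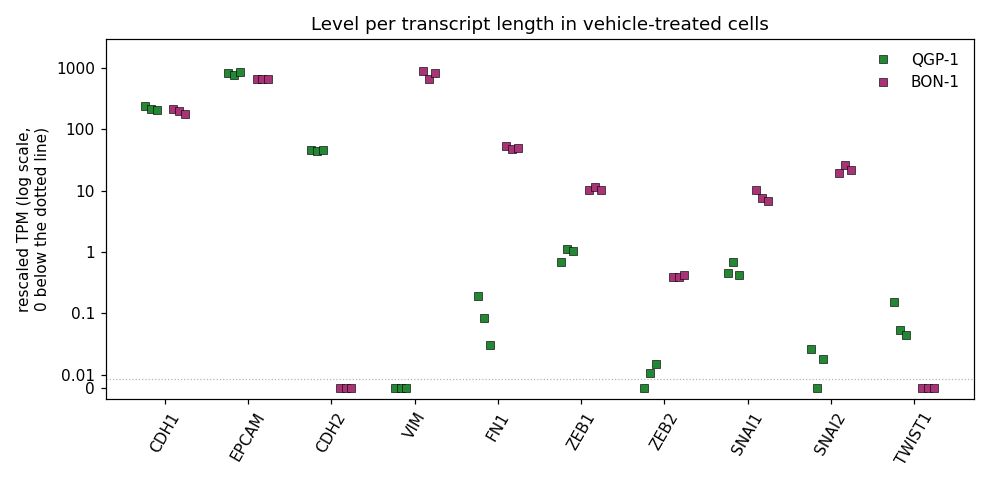
Rescaled TPM of the 10 genes (log axis, values of 0 drawn below the dotted line) in the 3 vehicle libraries of QGP-1 (green) and BON-1 (purple), one square per library. CDH1 and EPCAM lie close together in the lines, CDH2 is at 0 in BON-1, VIM is at 0 in QGP-1, and the levels of FN1, ZEB1, ZEB2, SNAI1 and SNAI2 lie higher in BON-1.

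The line difference was tested as BON-1 vehicle against QGP-1 vehicle in an edgeR fit of all 12 libraries, in which 37.5% of the 16598 genes tested were lower and 37.5% higher in BON-1. Of the 9 members tested, 3 were lower in BON-1 (CDH1, CDH2 and EPCAM) and 6 were higher (VIM, ZEB1, ZEB2, SNAI1, SNAI2 and FN1). TWIST1 was not tested. VIM, ZEB2 and SNAI2 passed the filter through BON-1 and CDH2 through QGP-1, so the counts are no share of the set. Most genes are called between the lines at this threshold, so a call alone says little about the members. Line, growth medium, table and depth differ together and cannot be told apart.

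The epithelial genes differed little in size. CDH1 on chromosome 16 (GRCh38 positions of the GENCODE annotation, 68737292 to 68835537, plus strand) stood at 614, 575 and 568 CPM in QGP-1 vehicle and at 488, 427 and 394 CPM in BON-1 vehicle, a log2 difference of -0.50 (SE 0.08, adjusted p = 5.76e-06). EPCAM on chromosome 2 (47345158 to 47387601, plus strand) stood at 665, 636 and 745 CPM against 469, 438 and 451 CPM, a log2 difference of -0.67 (SE 0.08, adjusted p = 2.27e-08). The lines did not overlap for either gene.

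The mesenchymal structural genes differed by orders of magnitude. CDH2 on chromosome 18 (27932879 to 28177946, minus strand) had 4044, 4646 and 5696 counts in QGP-1 vehicle and 0 counts in each of the 6 BON-1 libraries. With 3 counts over the BON-1 vehicle group as the floor, 0.0437 CPM, CDH2 was at least 2504-fold higher in QGP-1. VIM on chromosome 10 (17228241 to 17237593, plus strand) showed the reverse, with 0 counts in each QGP-1 vehicle library and 23143, 13110 and 13882 in BON-1 vehicle. Against a QGP-1 floor of 0.0229 CPM, VIM was at least 31676-fold higher in BON-1. FN1 on chromosome 2 (215360440 to 215436073, minus strand) had 36, 18 and 8 counts in QGP-1 vehicle and 6415, 4360 and 3799 in BON-1 vehicle, a log2 difference of 8.70 (SE 0.24, adjusted p = 1.78e-20). This ranged from 8.22 without QGP-1 vehicle replicate 3 to 9.46 without QGP-1 vehicle replicate 1.

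The transcription factors ZEB1, SNAI1, SNAI2 and ZEB2 were higher in BON-1. SNAI2 and ZEB2 passed the filter through BON-1, where they are high, and TWIST1, with its few counts in QGP-1, was removed by it. ZEB1 on chromosome 10 (31318495 to 31529814, plus strand) stood at 2.96, 4.81 and 4.70 CPM in QGP-1 vehicle and at 37.3, 40.3 and 37.7 CPM in BON-1 vehicle (log2 difference 3.12, SE 0.15, adjusted p = 1.60e-15). SNAI1 on chromosome 20 (49982980 to 49988886, plus strand) stood at 0.367, 0.555 and 0.362 CPM against 7.07, 4.92 and 4.72 CPM (log2 difference 3.62, SE 0.41, adjusted p = 1.77e-08). SNAI2 on chromosome 8 (48917598 to 48921740, minus strand) had 1, 0 and 1 counts against 489, 499 and 345, so that its CPM ratio over the groups, 1272, has an exact 95% counting interval of 351 to 10512. ZEB2 on chromosome 2 (144364364 to 144521057, minus strand) had 0, 3 and 5 counts against 61, 46 and 42, a CPM ratio of 35.5 with a counting interval of 17.6 to 83.8. The fitted log2 difference of ZEB2, 5.01, ranged from 4.53 without QGP-1 vehicle replicate 1 to 5.67 without replicate 3 of that group. These intervals cover counting error only. TWIST1 on chromosome 7 (19020991 to 19117636, minus strand) had 5, 2 and 2 counts in QGP-1 vehicle and 0 in every BON-1 library, which is too few for a fold.

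Relatives of these genes also divided between the lines. Several of them were tested only because 1 line holds them at a high level, so their levels are given without counts of calls. Among the other cadherins, CDH18 stood at 109 CPM in QGP-1 vehicle and 0.0370 in BON-1, and CDH11, the osteoblast cadherin, at 13.2 and 0.0296. CDH17, the liver-intestine cadherin, stood at 0.0201 CPM in QGP-1 vehicle and 397 in BON-1, CDH6 at 28.7 and 249, and CDH7 had 0 counts in QGP-1 and 14.9 CPM in BON-1. Among the intermediate filament genes beside VIM, NES, which encodes nestin, stood at 129 CPM in QGP-1 vehicle and 27.6 in BON-1. The neuronal filaments INA, NEFL and NEFM each had 0 counts in QGP-1 vehicle and stood at 402, 16.9 and 20.2 CPM in BON-1. The keratin partners KRT8 and KRT18 were present in both lines, at 452 and 342 CPM in QGP-1 and at 762 and 711 CPM in BON-1, and KRT19 stood at 17.5 and 181 CPM.

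**Figure D2:**
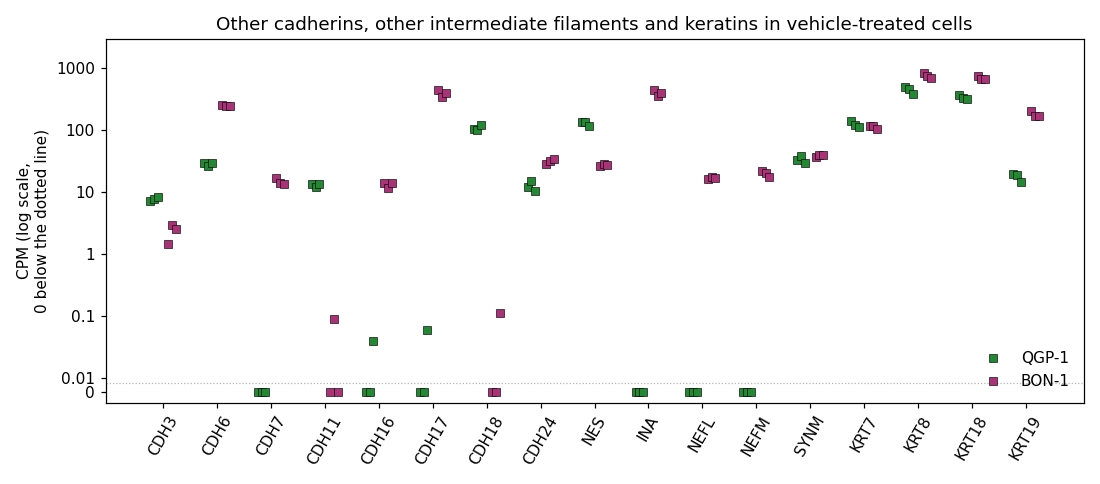
CPM (log axis, values of 0 drawn below the dotted line) of other cadherins, intermediate filament genes and keratins in the 3 vehicle libraries of QGP-1 (green) and BON-1 (purple). CDH11, CDH18 and NES are higher in QGP-1, whereas CDH6, CDH7, CDH16, CDH17, INA, NEFL and NEFM are higher in BON-1, and KRT8 and KRT18 are high in both.

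ZEB and SNAI proteins bind the E2-box CAGGTG, and its reverse complement CACCTG, which are special cases of the E-box CANNTG bound by TWIST1 and other helix-loop-helix proteins. Promoter windows of 300 bases, from 250 before to 50 after a start, were taken from RefSeq on GRCh38.p14 for CDH2, VIM, ZEB1, ZEB2 and FN1, which have 12 windows in all. CDH1, EPCAM, SNAI1, SNAI2 and TWIST1 have no window in that table. ZEB1 has 7 of these windows, and VIM, ZEB2 and FN1 have 1 each. An E2-box on either strand was found in 2 of the 12 windows, both of ZEB1, with 1 match in the window at 31318167 to 31318466 of chromosome 10 and 3 in that at 31318966 to 31319265. Of all 35116 RefSeq promoter windows, 20.6% hold an E2-box and 68.7% hold CANNTG. The 250 bases before the start are shown for genes that set the lines apart, with CANNTG in capitals: ZEB1 and FN1, which were higher in BON-1, and VIM and CDH2, which had 0 counts in one of the lines. They read 5′ to 3′ on the strand of the gene, at chr10:31318167-31318416 (plus) for ZEB1, chr2:215436069-215436318 (minus) for FN1, chr10:17227991-17228240 (plus) for VIM and chr18:28177131-28177380 (minus) for CDH2.
ZEB1: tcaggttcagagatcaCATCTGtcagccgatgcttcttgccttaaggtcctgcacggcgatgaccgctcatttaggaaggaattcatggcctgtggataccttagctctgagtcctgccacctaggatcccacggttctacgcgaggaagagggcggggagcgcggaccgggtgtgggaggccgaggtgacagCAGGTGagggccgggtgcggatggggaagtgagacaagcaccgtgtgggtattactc
FN1: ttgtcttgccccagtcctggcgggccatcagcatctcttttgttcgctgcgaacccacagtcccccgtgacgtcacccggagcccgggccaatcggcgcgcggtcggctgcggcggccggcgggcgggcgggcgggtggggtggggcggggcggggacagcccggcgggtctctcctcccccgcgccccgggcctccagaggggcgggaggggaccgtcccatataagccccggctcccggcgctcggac
VIM: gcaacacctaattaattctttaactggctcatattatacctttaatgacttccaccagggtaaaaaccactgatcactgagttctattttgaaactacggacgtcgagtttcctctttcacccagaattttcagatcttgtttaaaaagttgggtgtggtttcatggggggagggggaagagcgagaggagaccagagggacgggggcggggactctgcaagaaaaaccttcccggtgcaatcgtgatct
CDH2: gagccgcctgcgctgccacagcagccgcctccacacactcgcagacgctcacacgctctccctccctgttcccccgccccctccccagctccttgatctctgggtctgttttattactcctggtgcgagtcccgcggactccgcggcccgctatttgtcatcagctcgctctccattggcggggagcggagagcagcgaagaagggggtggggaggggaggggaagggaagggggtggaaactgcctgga
The ZEB1 stretch holds CANNTG at 2 positions, and the one at position 194 from its left end is the E2-box. It comes from 1 of 7 ZEB1 windows, of which 2 hold an E2-box, so it does not stand for the others. The stretches of FN1, VIM and CDH2 shown hold neither motif. CDH2 has 2 windows, and the other, at 28036592 to 28036891 of chromosome 18, holds 1 CANNTG and no E2-box. A match describes these letters only, and no match says nothing of the factors.

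The response to DOX was tested next, within each line. In QGP-1 cells 17.7% of 15089 genes tested fell and 17.3% rose with DOX. Of the 10 members, 6 passed the filter on low counts, 3 of them rose (CDH2, ZEB1 and FN1), 0 fell and 3 did not pass the test (CDH1, EPCAM and SNAI1), while VIM, ZEB2, SNAI2 and TWIST1 were not tested. The genes that passed the filter there are those with enough counts, so the count of 3 in 6 is not a share of the set. FN1 was among them only through its DOX libraries, where it is high. In BON-1 cells 18.3% of 14625 genes fell and 17.0% rose. Of 8 members tested, ZEB1 and SNAI2 rose, 0 fell, and CDH1, VIM, EPCAM, ZEB2, SNAI1 and FN1 did not pass the test. By DESeq2, 0 members fell in either line as well, and the counts of 3 and 2 higher were the same. At an unadjusted p below 0.05, SNAI1 in BON-1 was the only member on the lower side, and CDH1 in QGP-1 was added on the higher side. Of all genes, 6691 of 15089 in QGP-1 and 6432 of 14625 in BON-1 lay below that value.

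**Figure D3:**
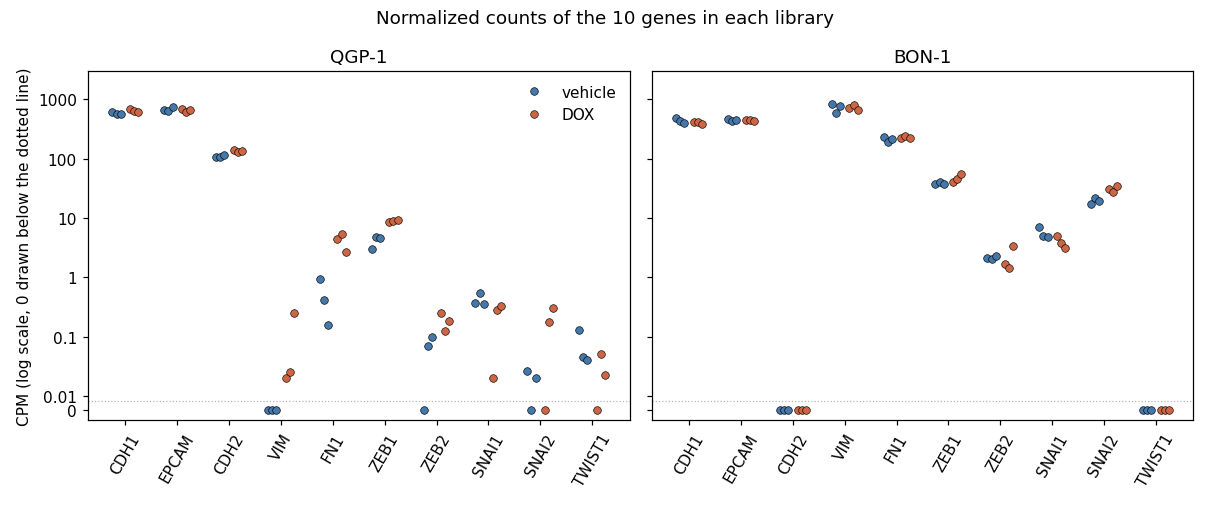
CPM of the 10 genes (log axis, values of 0 drawn below the dotted line) in each library of QGP-1 (left) and BON-1 (right), vehicle in blue and DOX in orange. FN1 and ZEB1 separate by treatment in QGP-1 and SNAI2 in BON-1, while CDH1 and EPCAM stay between 385 and 745 CPM in each library.

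The epithelial genes CDH1 and EPCAM passed the test in neither line. CDH1 stood at 614, 575 and 568 CPM with vehicle and at 695, 636 and 619 CPM with DOX in QGP-1, without overlap (log2 fold change 0.15, SE 0.07, 95% interval 0.00 to 0.30, adjusted p = 0.102). In BON-1 it stood at 488, 427 and 394 CPM with vehicle and at 409, 409 and 385 CPM with DOX, with overlap (log2 fold change -0.12, SE 0.08, interval -0.29 to 0.04, adjusted p = 0.256). EPCAM stood at 665, 636 and 745 CPM with vehicle and at 676, 598 and 667 CPM with DOX in QGP-1, and at 469, 438 and 451 CPM and 451, 444 and 434 CPM in BON-1. It overlapped between the groups in both lines. Its log2 fold change was -0.08 (interval -0.24 to 0.09) in QGP-1 and -0.03 (interval -0.18 to 0.12) in BON-1.

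FN1 had the largest log2 fold change of the members tested within QGP-1. There it moved from 0.944, 0.416 and 0.161 CPM to 4.52, 5.40 and 2.70 CPM, with each DOX library above each vehicle library. The log2 fold change was 3.10 (SE 0.44, adjusted p = 0.000130), the 18th largest in size of all genes tested in that line, and it ranged from 2.64 without vehicle replicate 3 to 3.88 without vehicle replicate 1. Its vehicle libraries alone would not have passed the filter on low counts. FN1 entered the test through its DOX libraries, where it is high, so its call and rank depend on that. With any total count above 0 as the filter the log2 fold change was 3.11. The fold of 8.56 starts from a low base, since the vehicle libraries held 8 to 36 FN1 counts and the DOX libraries 116 to 218, and the DOX level of 4.20 ± 1.38 CPM (SD, n = 3) lay far below the 211 ± 17.2 CPM of BON-1 vehicle cells. VIM, abundant in BON-1, had 1, 1 and 11 counts in those same QGP-1 DOX libraries. On the rescaled TPM of QGP-1, FN1 stood below SNAI1 with vehicle (0.102 against 0.523) and above it with DOX (1.05 against 0.322). In BON-1 FN1 stood at 228, 193 and 211 CPM with vehicle and at 225, 243 and 225 CPM with DOX, with overlap (log2 fold change 0.13, SE 0.08, adjusted p = 0.192).

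CDH2 rose modestly in QGP-1, from 106, 107 and 114 CPM to 141, 131 and 135 CPM, without overlap (log2 fold change 0.31, SE 0.07, adjusted p = 0.00260). VIM had 0 counts in the vehicle libraries of that line and 1, 1 and 11 with DOX, and was not tested within it. In the fit of all 12 libraries VIM and SNAI2 passed the filter through BON-1, where they are high, so that their adjusted p by edgeR in QGP-1 (0.0269 and 0.0176) is not used as a call. In BON-1 VIM stood at 822, 581 and 771 CPM with vehicle and at 705, 786 and 664 CPM with DOX, with overlap (log2 fold change -0.01, interval -0.21 to 0.19, adjusted p = 0.935).

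ZEB1 was the single member that passed the test in both lines. In QGP-1 it moved from 2.96, 4.81 and 4.70 CPM to 8.62, 8.95 and 9.36 CPM, so that the groups did not overlap (log2 fold change 1.10, SE 0.18, adjusted p = 0.000311). In BON-1 it moved from 37.3, 40.3 and 37.7 CPM to 40.2, 45.8 and 54.9 CPM, and the lowest DOX library lay just below the highest vehicle library (log2 fold change 0.29, SE 0.10, adjusted p = 0.0279). This BON-1 call held in 1 of 6 fits that left out a library. It was lost without vehicle replicate 1, 2 or 3 and without DOX replicate 2 or 3, where the adjusted p ranged from 0.0529 to 0.283. The log2 fold change was 0.15 without DOX replicate 3 and 0.27 to 0.32 in the other 4 of these fits. The call was also lost with scaling by library size (log2 fold change 0.25, adjusted p = 0.0816) and in the fit of all 12 libraries (log2 fold change 0.30, adjusted p = 0.0917). By limma on the deposited TPM, ZEB1 in BON-1 changed sign, to -0.0538 and -0.0822 (adjusted p = 0.932 and 0.919). The median of all genes in those fits lay at -0.31 and -0.37. ZEB1-AS1, transcribed from the opposite strand with 1953 bases in common, stood at 4.70 and 5.33 CPM in QGP-1 vehicle and DOX and at 35.5 and 36.2 CPM in BON-1, and it passed the test in neither line. The libraries were stranded, but whether the counting used the strand is not given in the sources used here, so reads of ZEB1 and ZEB1-AS1 in the shared stretch may not be separated. The same holds for VIM and VIM-AS1 over 1778 bases and for ZEB2 and ZEB2-AS1 over 3080 bases, which bears on the few VIM and ZEB2 counts in QGP-1.

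**Figure D4:**
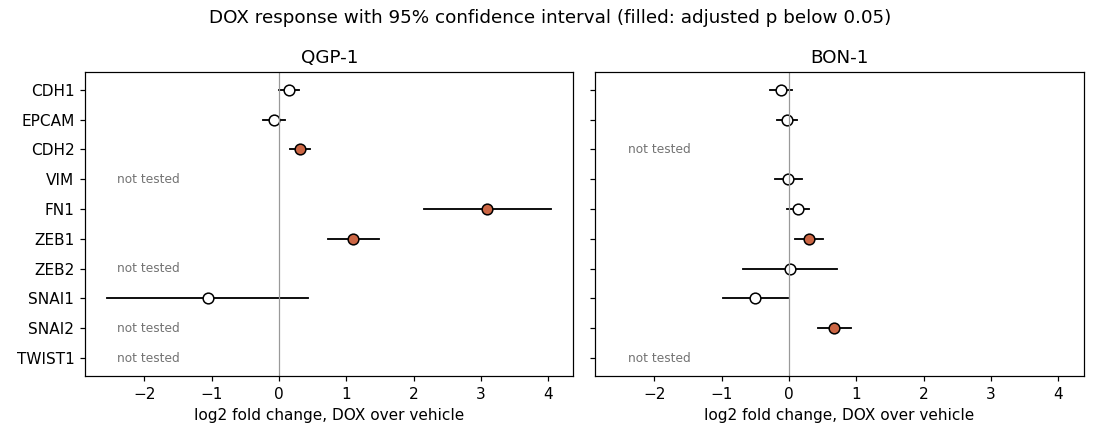
Log2 fold change with DOX and its 95% confidence interval for the 6 members tested in QGP-1 (left) and the 8 tested in BON-1 (right), the others being marked as not tested, with filled points for an adjusted p below 0.05. FN1 at 3.10 and ZEB1 at 1.10 lie farthest to the right in QGP-1, and SNAI2 at 0.67 in BON-1, while the intervals of CDH1, EPCAM and VIM in BON-1 include 0.

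SNAI2, which encodes SLUG, rose in BON-1 from 17.4, 22.1 and 19.2 CPM to 30.6, 27.8 and 35.0 CPM, without overlap (log2 fold change 0.67, SE 0.12, adjusted p = 6.41e-05). In limma fits of the deposited TPM, where the median of all genes in BON-1 lay at -0.31 or -0.37, SNAI2 was at 0.28 or 0.30 and did not pass (adjusted p = 0.652 and 0.695). In QGP-1 it had 1, 0 and 1 counts with vehicle and 0, 7 and 13 with DOX, with overlap, and was not tested. The CPM ratio over those groups was 10.0, with an exact 95% interval of 2.44 to 88.5 that covers counting error only and not the spread between libraries. SNAI1, which encodes SNAIL, stood at 7.07, 4.92 and 4.72 CPM with vehicle and at 5.07, 3.80 and 3.10 CPM with DOX in BON-1, with overlap (log2 fold change -0.50, SE 0.24, adjusted p = 0.102). Without DOX replicate 1 it passed the edgeR test, at a log2 fold change of -0.71 and an adjusted p of 0.0440, while without vehicle replicate 1 the value was -0.28 (adjusted p = 0.454). In QGP-1 SNAI1 had 14, 24 and 18 counts with vehicle and 1, 11 and 14 with DOX, and its CPM, 0.362 to 0.555 against 0.0207 to 0.325, did not overlap (log2 fold change -1.06, SE 0.70, adjusted p = 0.263). That value ranged from -1.56 without DOX replicate 3 to -0.49 without DOX replicate 1. ZEB2 in QGP-1 and TWIST1 in both lines held few counts or 0. ZEB2 moved from 0, 3 and 5 counts to 12, 5 and 8 in QGP-1, where it was not tested, and from 2.17, 2.04 and 2.33 CPM to 1.67, 1.46 and 3.41 CPM in BON-1, with overlap. TWIST1 had at most 5 counts in any library.

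Marker levels moved with DOX as well, and their part in these results was not tested. Of the immune markers, LYZ, which encodes lysozyme, rose in QGP-1 from between 9.97 and 11.6 CPM with vehicle to between 15.6 and 19.0 CPM with DOX, and CD68, a lysosomal protein of macrophages, rose in BON-1 from a mean of 25.3 to 50.6 CPM. The summed level of the acinar list was 82.5 to 151 CPM and 28.9 to 40.0 CPM in QGP-1, and 36.0 to 45.9 CPM and 19.6 to 27.0 CPM in BON-1. The neuroendocrine list summed to 6314 to 7157 CPM with vehicle and 7146 to 7807 CPM with DOX in QGP-1, where 7 of its 17 tested genes rose and 2 fell. In BON-1 it summed to 12308 to 15795 CPM and 9924 to 10396 CPM, where 6 of its 15 tested genes fell and 2 rose. The endothelial sums overlapped between vehicle and DOX in both lines, and the epithelial sums were 2369 to 2522 CPM and 2261 to 2282 CPM in QGP-1 and 2512 to 2903 CPM and 3175 to 3812 CPM in BON-1.

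The interaction of line and DOX was fitted to ask whether QGP-1 and BON-1 cells responded differently. For this term 7.92% of 16598 genes were lower and 8.80% higher in BON-1 than in QGP-1. Of 9 members in the fit, FN1, ZEB1 and VIM were lower in BON-1, and CDH1, EPCAM, ZEB2, SNAI1 and SNAI2 did not pass the test. For CDH2, with 0 counts in each BON-1 library, the difference cannot be estimated. The difference in log2 fold change was -2.98 for FN1 (SE 0.33, adjusted p = 1.10e-06) and -0.79 for ZEB1 (SE 0.20, adjusted p = 0.00775), and both calls held in all 12 fits that left out a library. The FN1 difference ranged from -3.74 to -2.51 over those fits, with the largest size without QGP-1 vehicle replicate 1, and that of ZEB1 from -0.94 to -0.61. VIM passed the filter only through BON-1, its call rests on 13 counts in the QGP-1 DOX group against 0 with vehicle, and it held in 4 of those 12 fits. For SNAI2 the difference did not pass the test (adjusted p = 0.110), with 2 counts in the QGP-1 vehicle group, so its rise in BON-1 is not shown to be particular to that line. That SNAI2 difference, -2.36, ranged from -1.45 without QGP-1 DOX replicate 3 to -3.05 without QGP-1 DOX replicate 1, where it passed the test (adjusted p = 0.00613). CDH1 had a difference of -0.26 (SE 0.11, adjusted p = 0.122), which passed the test without BON-1 vehicle replicate 3 (-0.35, adjusted p = 0.0344), and EPCAM one of 0.05 (SE 0.11, adjusted p = 0.794).

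Genes with a pattern like that of a member were sought by the distance in 3 log2 differences, DOX in QGP-1, DOX in BON-1 and line, among 10444 other genes (10445 for SNAI1) whose average log2 CPM reached 3. This was done for the 5 members tested in both lines. Nearest to CDH1 were SIN3A, a corepressor scaffold, at a distance of 0.043 and AP5B1 at 0.054, and nearest to EPCAM were KLHL36 and NDUFA2. For FN1 the rule gave SNAI2 at a distance of 1.34 and SLC4A4 at 1.46. SNAI2 entered this fit through BON-1 and its place rests on 2 vehicle counts in QGP-1, so the order of these is not read. Nearest to ZEB1 were S100A16 at 0.398 and MIR9-3HG at 0.443, and nearest to SNAI1 were TGIF2, a homeobox repressor of TGF-beta signaling, at 0.211 and FAM105A at 0.474. These are descriptions over 4 group means, and the FN1 values in QGP-1 start from few counts.

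TGF-beta signaling, a main inducer of EMT, was described over 20 genes. In QGP-1 18 were tested, of which 8 rose and 1 fell, with a median log2 fold change of 0.22 against -0.01 for all genes. In BON-1 20 were tested, of which 6 rose and 2 fell, with a median of -0.00 against -0.01. Among the ligands, TGFB2 showed the largest change. It stood at 11.9, 10.4 and 9.45 CPM with vehicle and at 64.2, 63.8 and 74.9 CPM with DOX in BON-1 (log2 fold change 2.67, SE 0.11, adjusted p = 1.23e-16), and at 0.0694 to 0.431 CPM in the QGP-1 libraries, where it did not pass the test. TGFB1 fell in BON-1 from 39.6 to 22.0 CPM (log2 fold change -0.85, SE 0.12). TGFB3 rose in QGP-1 from 32.3 to 41.4 CPM and did not pass the test in BON-1, where it stood at 570 and 513 CPM. INHBA, an activin subunit, rose in both lines, from 3.77 to 10.7 CPM in QGP-1 and from 0.679 to 2.01 CPM in BON-1.

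The receptor TGFBR2 rose in both lines. It moved from 21.1 to 31.8 CPM in QGP-1 (log2 fold change 0.59, SE 0.10) and from 206 to 416 CPM in BON-1 (log2 fold change 1.01, SE 0.08), and the change was larger in BON-1 (interaction 0.43, SE 0.11, adjusted p = 0.00957). TGFBR1 rose in QGP-1 from 98.0 to 123 CPM and stood at 28.4 and 28.6 CPM in BON-1. LTBP1, which tethers latent TGF-beta to the matrix, rose in both lines, by 1.24 (SE 0.10) in QGP-1 and 1.23 (SE 0.11) in BON-1 on the log2 scale, with an interaction of 0.00 (SE 0.16). The inhibitors SKI, SKIL and TGIF1 rose in QGP-1, by 0.59, 0.53 and 0.37, while in BON-1 their log2 fold changes were 0.03, -0.05 and -0.01. LTBP2 fell in both lines, by 1.19 in QGP-1 and 0.93 in BON-1, and the ligand BMP4 rose in BON-1 by 0.53. The signal transducer SMAD3 rose in BON-1 by 0.58 (SE 0.08) and had a log2 fold change of -0.34 (SE 0.15, adjusted p = 0.0887) in QGP-1.

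**Figure D5:**
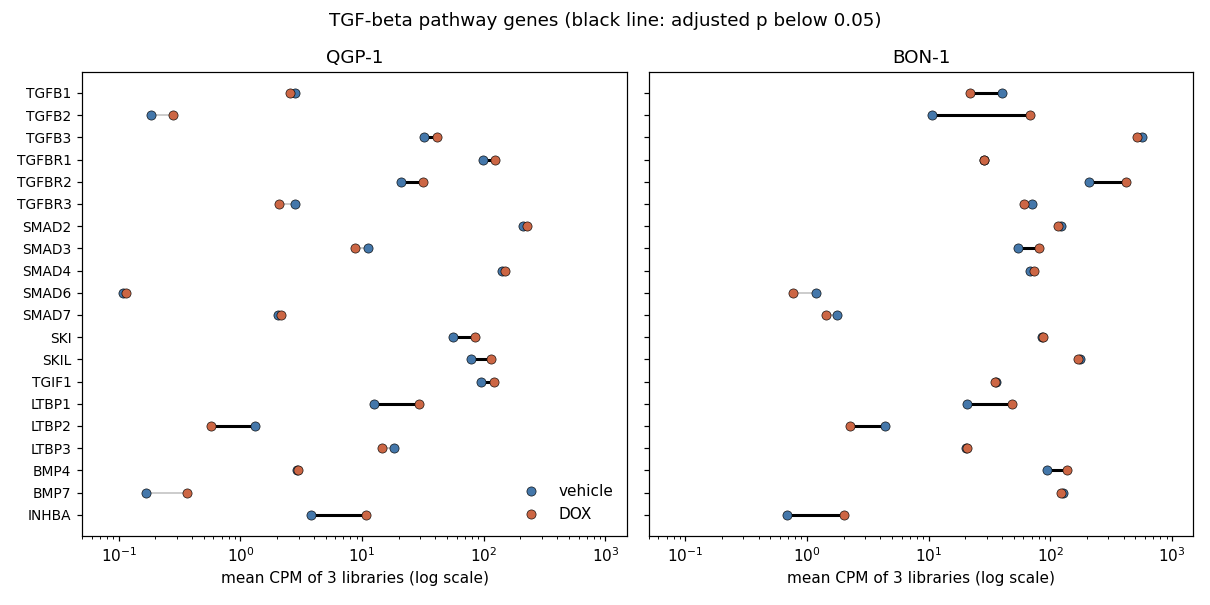
Mean CPM of 3 libraries (log axis) with vehicle (blue) and DOX (orange) for 20 TGF-beta pathway genes in QGP-1 (left) and BON-1 (right), joined in black where the adjusted p is below 0.05. TGFB2 moves from 10.6 to 67.6 CPM in BON-1, and LTBP1 and TGFBR2 move to the right in both lines.

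Of 17 other EMT transcription factors, 10 were tested in each line, and 3 rose in QGP-1, while 5 rose and 2 fell in BON-1. SOX4, an inducer of EMT that TGF-beta is known to raise, rose from 989 to 1775 CPM in QGP-1 (log2 fold change 0.84, SE 0.07) and from 778 to 1423 CPM in BON-1 (log2 fold change 0.87, SE 0.09). FOXC1 rose in QGP-1 from 6.75 to 14.2 CPM, and the interaction was -0.89 (SE 0.24, adjusted p = 0.0135). WWTR1, the Hippo pathway coactivator TAZ, rose in QGP-1 from 1.40 to 3.48 CPM and in BON-1 from 104 to 185 CPM. Of 15 corepressors of SNAI and ZEB, each tested in both lines, 2 fell and 3 rose in QGP-1 and 2 fell and 2 rose in BON-1. CTBP1, a corepressor that ZEB1 binds, fell in both, from 71.3 to 50.7 CPM in QGP-1 and from 62.6 to 34.2 CPM in BON-1. Of 12 tested genes of SNAI1 and TWIST1 protein turnover, 5 rose and 1 fell in QGP-1, and 3 rose in BON-1, with GSK3B, the kinase that marks SNAI1 for degradation, up by 0.43 and 0.34.

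Junction and polarity genes went both ways. In adherens junctions 3 of 11 fell and 1 rose in QGP-1, and 3 fell and 3 rose in BON-1. CTNNB1, which encodes beta-catenin, fell in QGP-1 from 160 to 138 CPM and in BON-1 from 191 to 128 CPM, whereas AFDN, which encodes afadin, rose in both. CTNND1 read 0.918 CPM in QGP-1 vehicle and 1.48 in BON-1 vehicle. Other protein-coding genes of the same strand overlap it by up to 65189 bases, so its value is uncertain. In tight junctions and desmosomes 5 of 18 fell and 6 rose in QGP-1, and 6 of 19 fell and 5 rose in BON-1. OCLN, which encodes occludin, rose in QGP-1 from 24.0 to 36.1 CPM and fell in BON-1 from 82.4 to 67.5 CPM. EVPL fell in BON-1 from 30.3 to 14.8 CPM (log2 fold change -1.04, SE 0.12). DSG2, a desmosomal cadherin, fell in QGP-1 from 439 to 273 CPM and CLDN7 from 260 to 181 CPM, and PPL, which encodes periplakin, rose in BON-1 from 252 to 492 CPM. Of 13 polarity genes, 2 rose in QGP-1, and 2 fell and 1 rose in BON-1.

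Among 15 epithelial transcription and splicing factors, 6 fell and 2 rose in QGP-1, with a median of -0.27, and 3 of 13 fell and 4 rose in BON-1, with a median of 0.08. RBM47 and GRHL1 fell by 0.80 and 0.63 on the log2 scale in QGP-1. GRHL1 fell in BON-1 too, by 0.66, and KLF5 rose in both lines. FOXA1 went opposite ways, with a log2 fold change of 0.30 in QGP-1 and -0.57 in BON-1. In BON-1 FOXA2 fell (-0.31) and KLF4 rose (0.43). Of 4 simple epithelial keratins tested in QGP-1, KRT7 and KRT8 came nearest to the threshold, with log2 fold changes of -0.27 (adjusted p = 0.0555) and -0.24 (adjusted p = 0.0626). In BON-1 3 of 6 rose and 2 fell. KRT8 rose from 762 to 1171 CPM and KRT19 from 181 to 313 CPM there, as did KRT18, named after its values were seen, from 711 to 1062 CPM, and KRT7 fell from 114 to 78.7 CPM. Among 12 tested relatives, partners and proteases of EPCAM, 4 fell and 2 rose in QGP-1, where CD9, a tetraspanin that binds EPCAM, fell from 17.0 to 4.54 CPM, and 1 fell and 2 rose in BON-1.

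Of the mesenchymal matrix and protease genes, 3 of 13 fell and 4 rose in QGP-1, with a median log2 fold change of 0.48, and in BON-1 7 of 11 fell and 3 rose, with a median of -0.52. By the interaction test MMP2, TGFBI, TIMP1, COL5A2 and COL6A1, which were tested in both lines and are named after their values were seen, were lower in BON-1. So was LOX, which passed the filter only through QGP-1. LOX stood at a mean of 0.353 CPM in BON-1 vehicle and 0.0520 CPM with DOX. MMP2, a gelatinase, stood at 64.9, 68.7 and 53.5 CPM with vehicle and at 100.7, 100.1 and 97.0 CPM with DOX in QGP-1, and at 48.3, 40.4 and 37.9 CPM with vehicle and 13.7, 15.9 and 14.6 CPM with DOX in BON-1. It thus rose in one line and fell in the other (interaction -2.18, SE 0.15). TNC, which encodes tenascin C, rose in QGP-1 from 10.1 to 23.5 CPM and had 0 counts in BON-1, where VCAN, which encodes versican, rose from 46.8 to 105 CPM.

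Among fibronectin receptors, ITGB1, the integrin beta1 subunit, rose from 306 to 394 CPM in QGP-1 and from 772 to 1070 CPM in BON-1. ITGAV fell in both lines, from 172 to 114 CPM and from 204 to 146 CPM. Its partner subunit ITGB6 fell in QGP-1 from 52.0 to 27.4 CPM and rose in BON-1 from 4.81 to 8.05 CPM. In all, 4 of 13 genes of this list fell and 2 rose in QGP-1, and 3 fell and 6 rose in BON-1. Among the other cadherins, CDH11 rose in QGP-1 from 13.2 to 24.3 CPM and CDH6 fell from 28.7 to 14.9 CPM. In BON-1 CDH16, the kidney cadherin, fell from 13.3 to 2.42 CPM, CDH24 fell and CDH7 rose. Of the other intermediate filament genes, 1 fell and 1 rose of 5 in QGP-1, and 1 fell and 3 rose of 7 in BON-1, where NES fell from 27.6 to 14.8 CPM and NEFL and NEFM rose. Of 9 mesenchymal cytoskeleton and surface genes tested, 3 fell and 1 rose in QGP-1, and 2 fell and 4 rose in BON-1, with CNN3, a calponin, lower in both. Of the antisense and microRNA host transcripts, 5 were tested in each line, and 1 rose, MIR34AHG in BON-1 (log2 fold change 0.79, SE 0.27), named after its values were seen. In all, 245 genes stood on these lists. In QGP-1 18.3% of the 180 tested fell and 22.8% rose, against 17.7% and 17.3% of all genes. In BON-1 20.8% of 183 fell and 28.4% rose, against 18.3% and 17.0% of all genes. Shares of single lists near these values are no result about the list.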

How the data were processed

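RNA of 12 cultures, 3 in each of 4 groups, was sequenced as stranded mRNA libraries. The submitters' processing notes name STAR, DESeq2 and GRCh38; the counting program and its use of strand are not given in the sources used here. Whole-number counts per gene and TPM values were deposited by the authors, 1 table of each for each line, with 0 unused columns. RN7SK, RN7SL1 and RN7SL2 took 78.8 to 80.3% of the deposited TPM in QGP-1 with vehicle and 71.2 to 75.4% with DOX, without overlap. In BON-1 they took 50.9 to 65.6% with vehicle and 53.4 to 74.3% with DOX. The part of this share in the changes with DOX was not tested. TPM was rescaled without these 3 genes and used for levels only. Tests on the counts used edgeR 4.0.16 (R 4.3.3; filterByExpr, TMM, quasi-likelihood), vehicle and DOX within a line and all 12 libraries for the line and interaction tests, with Benjamini-Hochberg adjustment over all genes tested and a threshold of 0.05. The scripts were tested on simulated data. Replicates differed by more than sampling noise (chi-square per gene 5.92 to 29.7). From 16 context lists, up to 2 genes per direction, list and line were picked. They had the largest changes without overlap among genes whose average log2 CPM reached 3. Only some of the picked genes are named here, and not always the one with the larger change. The TGF-beta list was counted and drawn whole, and the text names those of its genes that passed the threshold in at least 1 line. The change in the other line is given beside some named genes (ITGAV, ITGB6, WWTR1, GRHL1, MMP2), chosen after it was seen. Other genes that were not picked are named as such or given for their level. Levels in each line were given for 6 marker lists; part of the immune list is not reported here. The members and lists were chosen with earlier results of these data known. DESeq2 1.42.0, limma 3.58.1 on log2(TPM + 1) and log2(TPM + 0.1) of the deposited TPM, other scalings and filters, a replicate block and leaving out each library were tried as alternatives.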

Additional observations from a re-analysis of the deposited data

Results flagged for a closer look

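For FN1 and ZEB1 the change with DOX differed between the lines by the interaction test in edgeR, by -2.98 (adjusted p = 1.10e-06) and -0.79 (adjusted p = 0.00775) on the log2 scale, lower in BON-1. VIM was also past the threshold, at -4.76 (adjusted p = 0.0444), but it passed the filter only through BON-1, where it is high. Its value rests on 0, 0 and 0 counts with vehicle and 1, 1 and 11 counts with DOX in QGP-1, and without DOX replicate 3 of that line it was -2.77 (adjusted p = 0.298).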

How the results depend on the processing

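Of 494 member log2 fold changes under alternative settings, 452 kept their direction and their side of the threshold, 17 lost the call, 7 gained one and 18 changed sign. The rises of CDH2, ZEB1 and FN1 in QGP-1 and of SNAI2 in BON-1 held in each of the 6 fits of their line that left out a library, with FN1 between 2.64 and 3.88, ZEB1 between 0.92 and 1.22, CDH2 between 0.29 and 0.35 and SNAI2 between 0.56 and 0.76. With all 6 QGP-1 libraries, FN1 passed the filter only through those with DOX, where it is high. The number of members higher in BON-1 ranged from 1 to 2 when a library was left out, the number lower from 0 to 1, and the number lower in the interaction from 2 to 4. With 1 fit for both lines, 5 members were higher in QGP-1, VIM and SNAI2 being added through a filter that BON-1 let them pass, and 1 in BON-1. With scaling by library size 1 member was higher in BON-1. Where each library had to hold at least 10 counts, 1 member was lower in the interaction, 1 higher and 2 lower in the line comparison and 2 higher in QGP-1, where FN1 was no longer tested, since fewer genes are tested. With limma on log2(TPM + 1) or log2(TPM + 0.1) the median of all genes moved to 0.59 or 0.73 in QGP-1 and to -0.31 or -0.37 in BON-1, and 0 members were higher in BON-1. In QGP-1 ZEB1 and FN1 were below the TPM minimum of these fits, and the 3 members called higher were CDH2, CDH1 (0.87 and 0.89) and EPCAM (0.66 and 0.66), the second EPCAM value lying below the shifted median. In BON-1 ZEB1 was at -0.0538 and -0.0822 and FN1 at -0.22 and -0.23, these 4 values above the shifted median, and SNAI2 was at 0.28 and 0.30 (adjusted p = 0.652 and 0.695).

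Some values changed sign, and not all of them lay near 0. In the fit of all 12 libraries the SNAI1 interaction was 0.58. The fitted value for CDH2, whose difference cannot be estimated, was -0.31. ZEB2 in BON-1 was at -0.0315 with library size, -0.00570 with any total count above 0 and -0.0805 with the replicate block, and between -0.50 and 0.23 when a library was left out. VIM in BON-1 ranged from -0.16 to 0.0865, the EPCAM interaction from -0.0147 to 0.10 and the SNAI1 interaction from -0.0489 to 1.10 when a library was left out. The EPCAM interaction was -0.0162 with library size, and that of CDH2, at 0 counts in BON-1, was 0.00926 with DESeq2. The cause was not tested. The CDH1 interaction passed the test with library size (-0.33, adjusted p = 0.0267), and that of SNAI2 with any total count above 0 (-2.39, adjusted p = 0.0229).

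Replicate numbers did not pair the samples (same-number correlations -0.02 to 0.05 in QGP-1 and -0.04 to 0.07 in BON-1). With the replicate block the counts of members were 3 higher in QGP-1, 2 higher in BON-1 and 3 lower in the interaction. Below about 10 counts in a library, as for VIM, ZEB2, SNAI2 and TWIST1 in QGP-1, depth limits what a test can show. Of the members tested in QGP-1, FN1 had 8 counts in vehicle replicate 3 and SNAI1 had 1 in DOX replicate 1, so the limit bears on them too.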
